A study of Saccharomyces cerevisiae with 6 samples.

Results

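A set of 10 budding yeast genes whose enzymes make UDP-glucose and make or break down trehalose was followed over 2, 4 and 6 h of shut-off of YPI1. The genes were taken by systematic name, whatever their values: PGM1, PGM2 and UGP1 for the supply of UDP-glucose, TPS1, TPS2, TPS3 and TSL1 for trehalose synthesis, and NTH1, NTH2 and ATH1 for trehalose breakdown. They are 10 of 6212 identifiers in the deposited table, and 9 of them are among the 5305 identifiers with a value on at least 1 array.

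Strain mmr09-4, of the cml476 background, carries a kanMX4-tetO7 cassette directly ahead of the YPI1 coding region, so doxycycline represses YPI1, which encodes a regulator of the protein phosphatase 1 catalytic subunit Glc7. Log-phase cultures of this strain in YPD, a rich glucose medium, received either 100 µg/ml doxycycline in an ethanol and water mix or the mix alone for 2, 4 or 6 h. Treated and untreated RNA of each time were hybridised together on 2 dye-swapped 2-colour arrays, which gives 6 arrays from 3 RNA pairs. All cells, untreated ones included, carried the tetO7 promoter, and no doxycycline-treated strain with an unmodified YPI1 was among the samples, so an effect of the drug itself cannot be told apart from that of YPI1 shut-off.

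Phosphoglucomutase, encoded by PGM1 and PGM2, converts glucose 6-phosphate to glucose 1-phosphate, which UGP1, the UDP-glucose pyrophosphorylase, joins with UTP to UDP-glucose. Tps1 transfers glucose from UDP-glucose to glucose 6-phosphate, Tps2 removes the phosphate to leave trehalose, and Tps3 and Tsl1 are larger, regulatory subunits of the same complex. Trehalose protects yeast proteins and membranes under heat and desiccation and is degraded by the neutral trehalases Nth1 and Nth2 and the acid trehalase Ath1. UDP-glucose also feeds glycogen and wall glucan, and Glc7 is known for activating glycogen synthase.

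All values are log2 ratios of treated over untreated cells on an array, and the value of a time is the mean ± SD of its 2 arrays (n = 2). That SD is technical, since both arrays share the same RNA. YPI1 was at −4.39 ± 0.48, −5.48 ± 0.23 and −6.30 ± 0.19 over the 3 times and negative on all 6 arrays, which together with the labels set the direction of the ratio. Arrays held values for 4250 to 4804 genes. Across genes the 2 dye orientations opposed each other at 2 h (r = −0.40, or −0.47 without YPI1) and at 4 h (r = −0.17, or −0.31 without YPI1), and matched at 6 h (r = 0.87). Arrays of different times with doxycycline in the same dye had r from 0.22 to 0.58, with 1 exception. That was replicate 1 of 4 h and replicate 2 of 6 h, both with doxycycline in Cy5, at r = −0.25 (−0.31 without YPI1). The Cy5-minus-Cy3 difference of a gene followed the dye at every time, with r = 0.57 between 2 and 4 h, 0.71 between 2 and 6 h and 0.54 between 4 and 6 h.

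At 6 h the genes for UDP-glucose supply and trehalose synthesis all had ratios above 0 wherever they were measured, while the neutral trehalase gene NTH1 had ratios below 0. At 2 and 4 h the mean of every measured enzyme gene lay within 0.26 of 0. The 6 genes with values on both 6 h arrays had a median of 1.07, against −0.10 over all 4160 genes measured there. A gene was counted past 2-fold if the mean of its 2 arrays was at least 1 in size with 1 sign on both. PGM1, PGM2, UGP1 and TSL1 were past it on the higher side at 6 h, 4 of 6, where 9.81% of all genes were, and none of the 6 was past it on the lower side (8.08% of genes). If each array had to reach 2-fold, a rule added after the values were seen, PGM2 and UGP1 remained, 2 of 6 against 6.42% of genes. The 6 h ratios of all genes were higher for longer genes (Spearman's rho 0.63 over 3921 genes with a length, which are not independent replicates), and all 10 genes here are between 1488 and 3636 bp long in the R64 annotation. Each 6 h value is therefore also given relative to matched genes, meaning the 20 genes of its own chromosome that are closest to it in length, whose median is subtracted. On that scale the median of the 6 was 0.32 against 0.00 over all genes, none was past 2-fold higher (2.70% of 3921 genes were) and 1, NTH1, was past 2-fold lower (2.91%, or 5.61% in either direction). Relative to matched genes, PGM2, UGP1 and TSL1 were above 0 on both 6 h arrays, 3 of 6 against 36.3% of genes. TPS2 and NTH1 were below 0 on both, 2 of 6 against 38% of genes. With a 1.5-fold limit on that scale, PGM2 and UGP1 were past it on the higher side, 2 of 6 against 10% of genes.

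**Figure D1:**
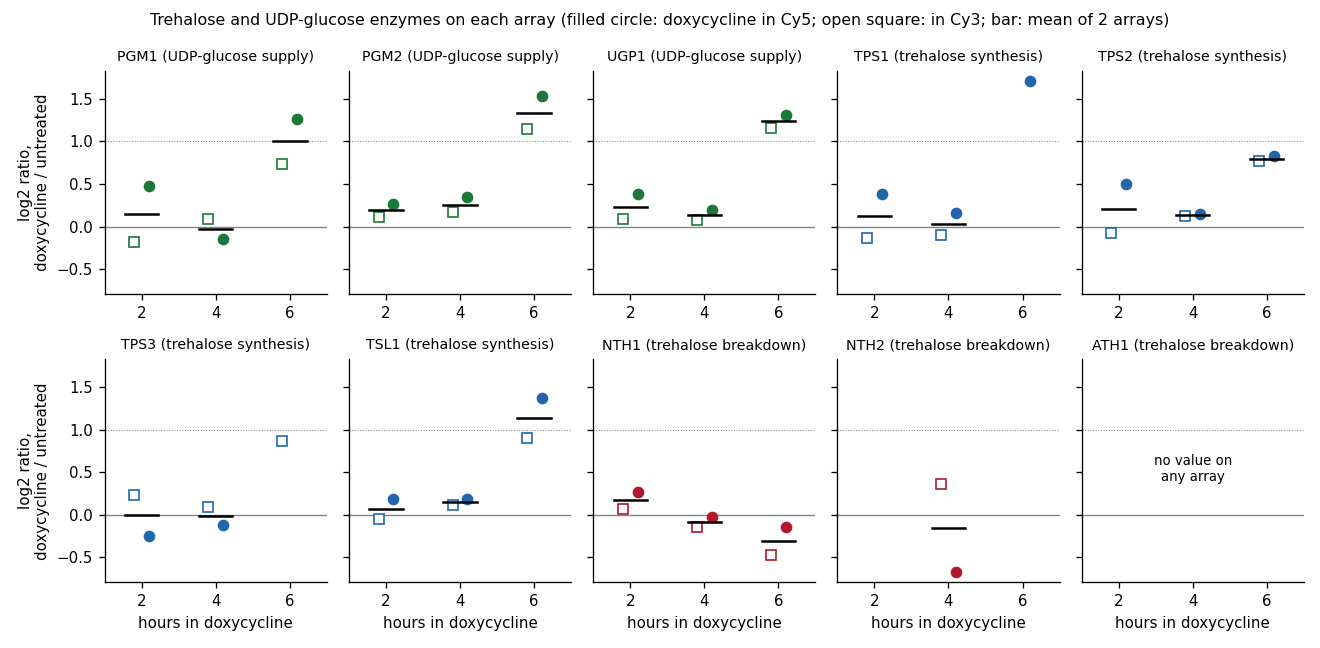
Log2 ratio of doxycycline-treated over untreated cells (vertical axis) on each array against hours in doxycycline (horizontal axis), with a panel per gene. Filled circles are arrays with doxycycline in Cy5, open squares in Cy3, bars the mean of 2 arrays and the dotted line a 2-fold ratio. The genes for supply and synthesis sit between 0.74 and 1.71 on the 6 h arrays, NTH1 sits below 0 at 4 and 6 h, and ATH1 had no value.

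The phosphoglucomutase gene PGM2 (YMR105C, chromosome XIII, 1710 bp), which encodes the major isoform of the enzyme, was above 0 on all 6 arrays. Its log2 ratios were 0.26 and 0.12 at 2 h, 0.35 and 0.17 at 4 h, then 1.15 and 1.53 at 6 h, for replicates 1 and 2. The 6 h arrays lay well above all earlier ones, and the ranges of 2 and 4 h overlapped. The 6 h mean of 1.34 ± 0.27 is a ratio of 2.53. Relative to matched genes it was 0.60 ± 0.24, and PGM2 exceeded 18 of its 20 matched genes on replicate 1 and all 20 on replicate 2. Of the 6 enzymes with values on all 6 arrays, PGM2 alone was above 0 on every one relative to matched genes, as were 1.73% of 3237 genes.

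UGP1 (YKL035W, chromosome XI, 1500 bp), the gene of UDP-glucose pyrophosphorylase and an essential gene, was the other gene above 0 on all 6 arrays. Its log2 ratios were 0.38 and 0.09 at 2 h, 0.20 and 0.08 at 4 h, then 1.15 and 1.31 at 6 h. At both earlier times the array with doxycycline in Cy5 gave the higher value and so it did at 6 h, where both arrays lay above all earlier ones. The 6 h mean was 1.23 ± 0.11, a ratio of 2.35, and 0.60 ± 0.16 relative to matched genes, with UGP1 above 19 and 20 of its 20 matched genes on the 2 arrays. PGM2 and UGP1 are 2 of the 6 genes here with values on all 6 arrays, and 1.00% of the 3391 genes with such values were above 0 on all of them.

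PGM1 (YKL127W, chromosome XI, 1713 bp), the minor phosphoglucomutase isoform, differed from PGM2 in the spread of its arrays. Its log2 ratios were 0.48 and −0.18 at 2 h, −0.14 and 0.09 at 4 h, then 0.74 and 1.26 at 6 h. The swapped arrays had opposite signs at 2 and 4 h and the same sign at 6 h. The 6 h mean of 1.00 ± 0.37 was just inside the 2-fold limit, and TPS2 at 0.80 was the nearest gene outside it. Relative to matched genes PGM1 was at 0.20 ± 0.46, with −0.12 on replicate 1 and 0.52 on replicate 2, so its arrays straddled the level of genes of its length. PGM1 and PGM2 are related in sequence, and signal shared between their probes was not tested.

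TPS1 (YBR126C, chromosome II, 1488 bp), the trehalose 6-phosphate synthase, had a single value at 6 h, and it was the highest of any of these genes on any array. Its log2 ratios were 0.38 and −0.14 at 2 h, 0.16 and −0.10 at 4 h, then 1.71 on replicate 2 of 6 h. Replicate 1 of 6 h had no value, so the 6 h ratio of TPS1 has no dye swap and is not among the 6 genes counted and averaged at 6 h. On that array TPS1 was 1.04 above the median of its matched genes and above 19 of 20 of them.

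TPS2 (YDR074W, chromosome IV, 2691 bp), the trehalose 6-phosphate phosphatase, had the closest agreement between the 6 h arrays. Its log2 ratios were 0.50 and −0.07 at 2 h, 0.15 and 0.12 at 4 h, then 0.77 and 0.83 at 6 h. Both 6 h values were above all earlier ones, and the 6 h mean was 0.80 ± 0.04, a ratio of 1.74. Genes of its length on chromosome IV were higher still, with medians of 1.02 and 1.25 on the 2 arrays. Relative to them TPS2 was at −0.34 ± 0.12, with 5 and 7 of 20 matched genes below it. That distance depends on the comparison genes. It was −0.11 with 10 matched genes, −0.13 with 40 and −0.2 with matching on length alone. With a smooth curve on gene length subtracted instead, TPS2 was at 0.1.

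The regulatory subunits TSL1 and TPS3 are both long genes of chromosome XIII. TSL1 (YML100W, 3297 bp) had log2 ratios of 0.19 and −0.05 at 2 h, 0.18 and 0.12 at 4 h, then 0.91 and 1.37 at 6 h. Its 6 h mean was 1.14 ± 0.33, a ratio of 2.20. Set against matched genes, TSL1 was at 0.43 ± 0.51, near them on replicate 1 (0.08, 12 of 20 below it) and above them on replicate 2 (0.79, 17 of 20 below it). TPS3 (YMR261C, 3165 bp) had log2 ratios of −0.25 and 0.24 at 2 h, −0.12 and 0.09 at 4 h, then 0.87 on replicate 1 of 6 h, with no value on replicate 2. TPS3 had opposite signs on the swapped arrays at both earlier times, and its 1 value at 6 h was −0.08 relative to matched genes, with 9 of 20 below it.

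**Figure D2:**
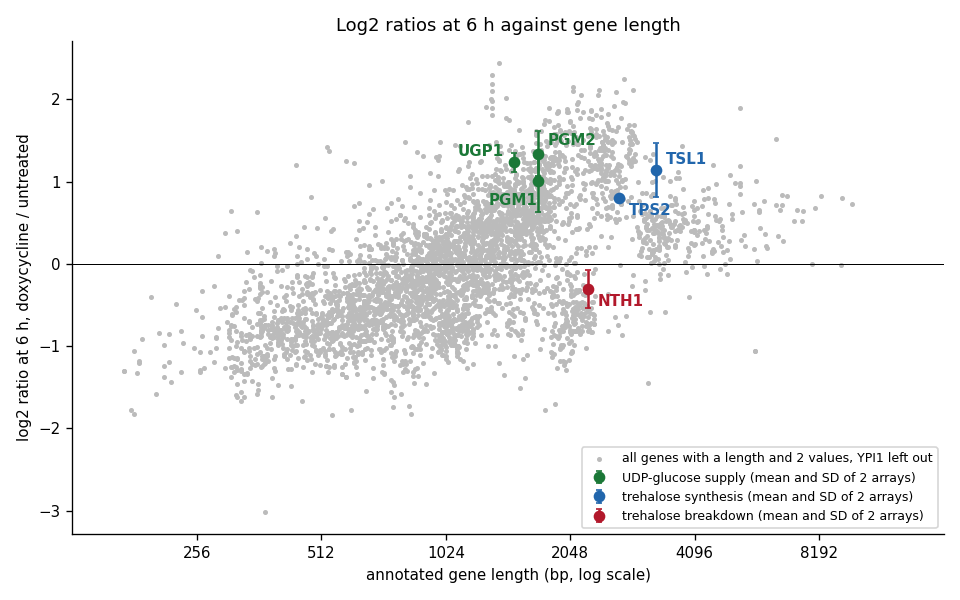
Log2 ratio at 6 h (vertical axis, mean of 2 arrays) against annotated gene length in bp on a log scale (horizontal axis), with all genes but YPI1 in grey and the enzymes in colour with the SD of 2 arrays. Ratios tend to be higher for longer genes, with a separate low cloud at 2000 to 2300 bp. UGP1 and PGM2 lie in the upper part at their length, 0.54 and 0.55 above the median of genes matched on length alone. TPS2 and TSL1 lie among genes of theirs, and NTH1 lies at −0.31, within the range of the low cloud.

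On the breakdown side, NTH1 (YDR001C, chromosome IV, 2256 bp), the main neutral trehalase, was the gene whose sign differed from the synthesis genes at 6 h. Its log2 ratios were 0.27 and 0.07 at 2 h, −0.02 and −0.14 at 4 h, then −0.47 and −0.14 at 6 h. Both arrays were above 0 at 2 h and both below 0 at 4 and at 6 h, and the ranges of 4 and 6 h overlapped near −0.14. The 6 h mean was −0.31 ± 0.24, or 1.24 times below untreated cells, short of the 2-fold limit. Relative to matched genes it was −1.20 ± 0.36, with 1 and 3 of the 20 matched genes below it, which made NTH1 the farthest of the 6 from genes of its length and chromosome. That distance depends on the comparison genes, because matching on length alone gave −0.64. In its length class of 2000 to under 2300 bp, limits chosen after the values were seen, the other 84 genes outside chromosomes X to XIII had a median of 1.15 (SD 0.75), and 8 of them were lower than NTH1. The 111 genes of chromosomes X to XIII in that class had a median of −0.52 (SD 0.50), and 80 of those were lower than NTH1. The part of this split in the value of NTH1 was not tested.

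NTH2 (YBR001C, chromosome II, 2343 bp), the second neutral trehalase gene, had values at 4 h alone, −0.67 and 0.36, which are of opposite sign and wide apart. ATH1 (YPR026W, chromosome XVI, 3636 bp), the acid trehalase gene, had no value on any array. The breakdown of trehalose is therefore represented at 6 h by NTH1 alone.

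**Figure D3:**
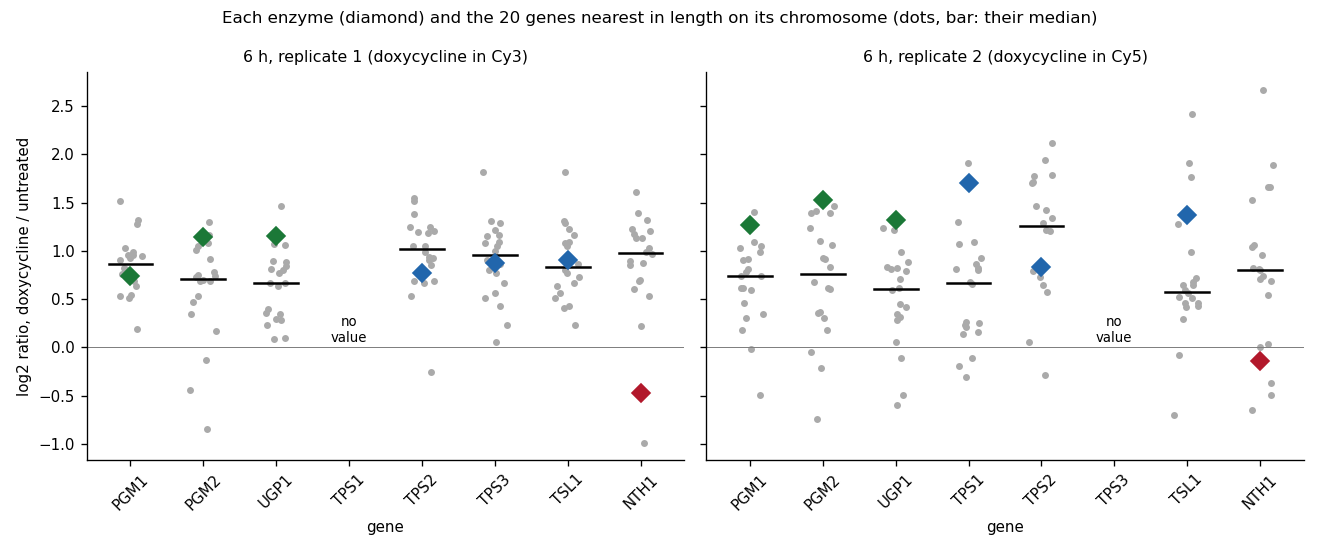
Log2 ratio at 6 h (vertical axis) of each enzyme (diamond) and of its 20 matched genes (dots, with a bar at their median), for both 6 h arrays. PGM2 and UGP1 lie above at least 18 of 20 matched genes on both arrays. The share of all genes that rank so high among their own matched genes was not counted. TPS2 lies below the bar on both arrays, and NTH1 lies below it by 1.45 on replicate 1 and 0.94 on replicate 2.

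The dye of the treated sample moved with these values. The array with doxycycline in Cy5 gave the higher ratio for 7 of 8 genes at 2 h, 6 of 9 at 4 h and 6 of 6 at 6 h, where 54.2%, 52.8% and 63.6% of all genes did so. The median Cy5-minus-Cy3 difference was 0.27, 0.07 and 0.36 for the enzymes and 0.05, 0.03 and 0.11 for all genes. At 6 h that difference is smaller than the ratios of the genes past 2-fold, and at 2 h it is larger than the mean ratio of any enzyme. At 2 h, 3 of 8 enzymes (PGM2, UGP1 and NTH1) were above 0 on both arrays, against 16.8% of genes, 0 of 8 were below 0 on both, against 16.3%, and 5 of 8 had opposite signs, against 66.5%. At 4 h, 4 of 9 were above 0 on both arrays (18.1% of genes), 1 was below 0 on both (17.5%) and 4 had opposite signs (64.0%). The enzymes had a median of 0.16 at 2 h (0.33 on replicate 1 and 0.01 on replicate 2) and 0.03 at 4 h, beside −0.01 and 0.01 over all genes, and none was past 2-fold at either time (0.0486% of genes at 2 h and 0.0640% at 4 h, in either direction). At 6 h, 5 of 6 were above 0 on both arrays (39.4% of genes) and 1 was below 0 on both (48.3%).

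Over the 3 times, none of the 6 enzymes with values on all 6 arrays passed a test. The mean of the 3 times was tested against 0 with limma over 3391 genes, of which 0.0295% passed, and YPI1 was the gene that did. The mean was 0.60 ± 0.27 (SE, n = 3 RNA pairs) for PGM2, 0.54 ± 0.26 for UGP1, 0.45 ± 0.26 for TSL1, 0.38 ± 0.21 for TPS2, 0.38 ± 0.25 for PGM1 and −0.07 ± 0.19 for NTH1. The limma adjusted p was 0.891 for NTH1 and 0.806 for the other 5, and none had an unadjusted p below 0.05 (0.295% of genes did). Each SE is the spread of 1 gene over the times, and differences between genes in this order were not tested. In this test change over time counts as error, and the 3 pairs differ in hours.

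A line through 0 on hours asks whether the ratio grows with time. Its slope was 0.17 ± 0.04 per hour (SE) for PGM2, 0.15 ± 0.04 for UGP1, 0.14 ± 0.04 for TSL1, 0.11 ± 0.04 for PGM1, 0.10 ± 0.04 for TPS2 and −0.03 ± 0.04 for NTH1. For the first 5 the unadjusted limma p was between 0.00513 and 0.039, as it was below 0.05 for 14.3% of all genes, and the adjusted p was 0.306. NTH1 had an adjusted p of 0.558, and 0.0590% of genes passed. With the 4 h arrays left out the same 5 genes passed, with limma adjusted p from 5.13e-07 for PGM2 to 0.00221 for TPS2, but so did 51.5% of all genes. That fit had 2 RNA pairs, and its SE was 0.0378 for each of the 6 enzymes. Its p-values therefore rank the size of the slopes against 1 shared spread and do not measure the spread of a gene. Of the 6 genes, 4 (PGM1, UGP1, TPS2 and NTH1) had a lower mean at 4 h than at 2 h. For PGM1, UGP1 and TPS2 that drop was smaller than the SD of the 2 h arrays. Whether the ratios follow a line was not tested.

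The genes with profiles most like these were found by the mean absolute difference over the 6 arrays, on values relative to matched genes, among 3237 genes. PGM2 was closest to FIT1, a cell wall mannoprotein of iron uptake (0.06), GLK1, glucokinase (0.06), and RTC3 (0.08). UGP1 was closest to KES1, an oxysterol-binding protein (0.12), MVD1, of the mevalonate pathway (0.13), and the G1 cyclin gene CLN2 (0.14). TSL1 was closest to GAS1, a wall glucanosyltransferase (0.05), and the permease genes HNM1 and HIP1 (0.06 each). The nearest enzyme of the set to PGM2 was UGP1, at rank 64 of 3236 genes, that to UGP1 was TSL1 at rank 27, that to PGM1 was TSL1 at rank 96, that to TSL1 was UGP1 at rank 155, that to NTH1 was TPS2 at rank 682, and that to TPS2 was TSL1 at rank 1222. TPS1 had no value on 1 array and was not ranked.

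The steps on either side of UDP-glucose were described from lists chosen for this pathway. No gene on them with values on all 6 arrays passed the limma tests of the mean or of the slope over the 3 times. Genes that lacked a value on any array, such as GSY1, GLG1, GIS1, YAK1 and FKS1, were not tested. With the 4 h arrays left out some listed genes, HXK1 and GLC3 among them, passed the slope test, as did 51.5% of all genes. Glucose phosphorylation, which supplies glucose 6-phosphate, had a median of 1.07 at 6 h over 4 of 4 genes, 2 of them past 2-fold higher (9.81% of all genes were), and 0.59 relative to matched genes. HXK1, a hexokinase, was at 1.75 ± 0.11 (1.19 relative to matched genes), GLK1 at 1.26 ± 0.51 (0.56), HXK2, the main hexokinase on glucose, at 0.88 ± 0.46 (0.19) and EMI2 at 0.65 ± 0.44 (0.61). Glycogen enzymes, which draw on the same UDP-glucose, had a median of 0.97 over 3 of 7 genes, 1 of them past 2-fold higher (against 9.81% of all genes), and 0.49 relative to matched genes. GLC3, the branching enzyme, was at 1.55 ± 0.38 but 0.24 relative to matched genes, and GDB1, the debranching enzyme, at 0.97 ± 0.15 and 0.49. GSY2, a glycogen synthase named after its values were seen, was at 0.72 ± 0.31 and at 1.24 relative to matched genes. It was the 1 gene of this list past 2-fold higher on that scale (2.70% of all genes). GSY2 (2118 bp, chromosome XII) falls in the length class and chromosomes whose 111 genes had a median of −0.52. Its mean over the 3 times was 0.43 relative to matched genes but 0.07 with a smooth curve on gene length subtracted. The part of that low group in its matched value was not tested. GLG1, a glycogenin, and GSY1, a glycogen synthase, had single values at 6 h of 1.10 and 1.31 (1.37 and 0.50 relative to matched genes).

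Other users of UDP-glucose were lower as a list. Their median was 0.29 at 6 h over 3 of 7 genes, and −0.15 relative to matched genes. None of the 3 was past 2-fold, where 17.9% of all genes were, in either direction. GSC2, a catalytic subunit of glucan synthase, was at 0.73 ± 0.21 (0.35 relative to matched genes), UGT51, the sterol glucosyltransferase named ATG26 in the annotation, at 0.29 ± 0.31 (−0.15), and ALG5, which makes dolichol-linked glucose, at −0.93 ± 0.02 (−0.42). FKS1, another glucan synthase subunit, had no value at 6 h and had −0.10 ± 0.19 after 2 h and 0.24 ± 0.04 after 4 h.

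Genes that act on trehalase or in trehalose transport had a median of −0.18 at 6 h over 4 of 5 genes. It was 0.27 relative to matched genes. None of the 4 was past 2-fold, where 17.9% of all genes were, in either direction. BMH2, a 14-3-3 protein of the kind that binds and activates phosphorylated Nth1, was at 0.29 ± 0.14 (0.84 relative to matched genes), and its relative BMH1 was at −0.43 ± 0.18 (−0.29). DCS1, described as an inhibitor of neutral trehalase, was at 0.08 ± 0.06 (0.30) and its relative DCS2 at −0.53 ± 0.04 (0.22).

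Among 8 regulators of the stress and protein kinase A routes known to act on trehalose genes, 7 had both 6 h values, with a median of 0.19, and 1 of 7 was past 2-fold, on the higher side, near the 9.81% of all genes. Their median was 0.07 relative to matched genes. YAK1, a kinase opposed to protein kinase A in growth control, was at 1.20 ± 0.18 (0.42 relative to matched genes), RIM15, a kinase of entry into stationary phase, at 0.62 ± 0.05 (−0.18), and MSN2, a transcription factor of the general stress response, at −0.56 ± 0.15 (0.07). GIS1, a zinc-finger factor downstream of Rim15, had a single 6 h value of 1.54 (0.53 relative to matched genes).

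Other genes known to be induced with trehalose genes in stress were mixed, with a median of 0.43 at 6 h over 7 of 8 genes, 2 past 2-fold higher (against 9.81% of all genes), and 0.66 relative to matched genes. SSA4, an Hsp70, was at 1.62 ± 0.13 (0.66 relative to matched genes) and HSP104, a disaggregase, at 1.48 ± 0.02 (0.78). HSP26, a small heat shock protein, was at 0.43 ± 0.02 (0.99). HSP12, a membrane-associated stress protein, was at −0.44 ± 0.08 (0.04) and had means below 0 at all 3 times. CTT1, cytosolic catalase, named after its values were seen, was at −0.69 ± 0.18 and, relative to matched genes, at −1.26, the 1 gene of this list past 2-fold lower on that scale (2.91% of all genes).

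**Figure D4:**
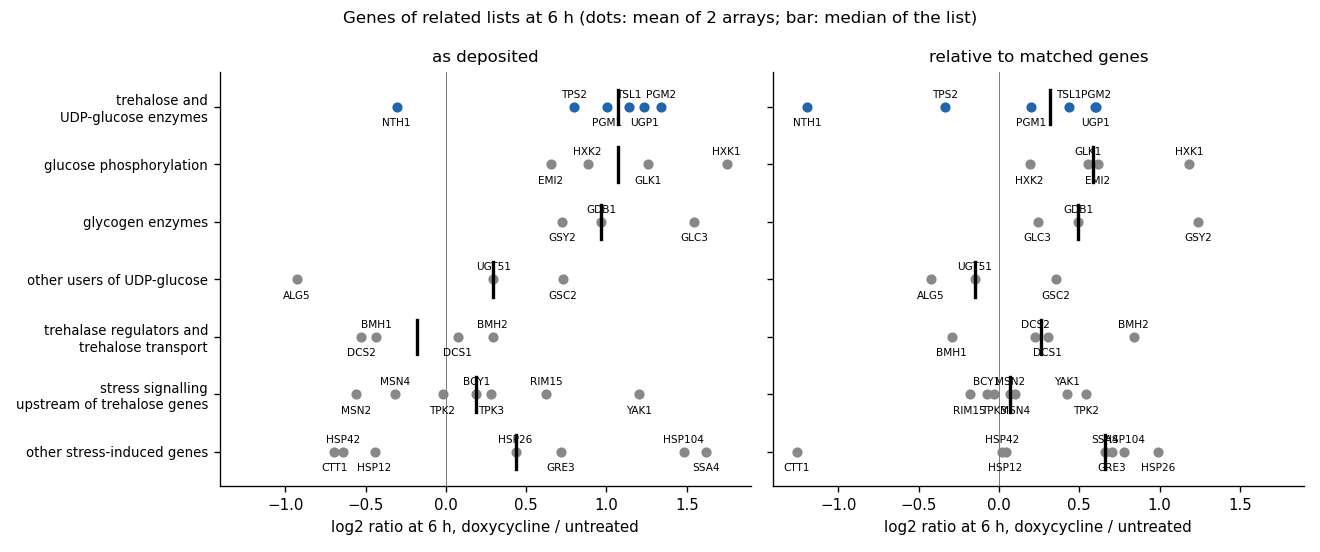
Log2 ratio at 6 h (horizontal axis, mean of 2 arrays) of each gene of the 10 enzymes and of 6 related lists (rows), as deposited on the left and relative to matched genes on the right, with a bar at the median of each list. The median of the enzymes moves from 1.07 to 0.32 and that of glucose phosphorylation from 1.07 to 0.59, while NTH1 moves from −0.31 to −1.20.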

How the data were processed

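RNA of doxycycline-treated and untreated tetO7-YPI1 yeast was compared on 6 two-colour arrays. The authors deposited 1 log2 ratio per open reading frame and array, and left out spots smaller than 120 µm or dimmer than 100 units, per the labels. The log base, normalization, combination of spots and turning of swapped arrays are not given in the sources used here. Base 2 and treated over untreated were assumed, the latter because the labels put treated RNA in channel 1 and YPI1 is negative throughout. Replicate 2 of 2 h has Cy3 in the labels of both its channels and was treated as dye-swapped. No spot intensities entered the analysis, so the depth is unknown and only the number of arrays bounds the precision.

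Of 6212 identifiers, 5662 matched the RefSeq R64 gene table by systematic name, 24 after a change to upper case. The 2 arrays of a time share RNA and were averaged. limma 3.58.1 in R 4.3.3 (lmFit, eBayes, two-sided, Benjamini-Hochberg at 0.05) tested the mean and the slope of the 3 time values over 3391 genes. The p-values measure the spread between times, not between biological replicates, and single times got no p. Matched genes, picked on each array, were the 20 closest in length within the chromosome. Named were all 10 enzymes, YPI1, the 3 nearest profiles of PGM2, UGP1 and TSL1 (TPS1, also in the rule, lacked a value) and up to 4 genes per list by size of the mean. The genes, lists, tests and the matching were chosen with earlier results of these data known. A gene of the stress signalling list is not reported here and was left out of its counts. The matching and the test of the mean were run on simulated data with known shifts. The shifts simulated for the test were the same at all times, so a rise at 6 h alone was not simulated. Same-numbered replicates do not pair, since their deviations correlated with r = 0.57, −0.71 and −0.54 between times. Alternatives covered centring, scaling, length, direction, filters, variance, units and left-out arrays. The planned motif search and paralogue alignment were not run.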

Additional observations from a re-analysis of the deposited data

Results flagged for a closer look

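The genes here had both arrays of 1 time above 0 and both arrays of another below 0. None of these differences was tested, as each time has 1 RNA pair. NTH1 differed by −0.26 between 2 and 4 h and by −0.48 between 2 and 6 h, later minus earlier. From 2 to 6 h the difference was 1.26 for GSC2, 0.32 for UGT51, 0.33 for DCS1, −0.61 for DCS2 and 0.49 for BMH2. BMH2 also differed by 0.27 from 2 to 4 h, DCS2 by −0.62 from 4 to 6 h and YAK1 by 1.33 from 4 to 6 h. No other enzyme of the set changed sign in this way. Relative to matched genes, the change from 2 to 6 h remained for NTH1, GSC2 and DCS1, and that from 4 to 6 h for YAK1. It did not remain for UGT51, BMH2 or DCS2, whose 6 h arrays were at 0.26 and 0.19 on that scale. Nor did it remain for NTH1 from 2 to 4 h, as its matched 4 h values were 0.30 and −0.27.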

How the results depend on the processing

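No enzyme passed the test of the mean under any of the 15 alternatives run, and none passed the test of the slope except 5 with the 4 h arrays left out. Genes past the test of the mean numbered 1, and 8 with arrays scaled, 755 with the Cy3 arrays turned, 11 without the 6 h arrays, 0 relative to matched genes, and 2 with the length curve removed, without the 2 h or the 4 h arrays, with 6 arrays as units, with a replicate block or with a dye term. Genes past the slope test numbered 2, and 4 with arrays scaled, 10 without the 6 h arrays, 1745 without the 4 h arrays, 3 with 6 arrays as units, and 0 with the length curve removed, relative to matched genes or with the Cy3 arrays turned. The mean of NTH1 turned to 0.11 with the Cy3 arrays turned and to 0.05 without the 6 h arrays. Enzymes past 2-fold at 6 h numbered 4, and 0 with arrays scaled or Cy3 arrays turned, 2 when each array had to pass, and 2 to 5 with a replicate left out, where 7 enzymes had a value and the 5 includes TPS1. With the length curve removed or relative to matched genes the number was 1, which was NTH1 on the lower side, and none of the 4 remained. With the length curve removed PGM1 was at 0.44, PGM2 at 0.78, UGP1 at 0.79, TPS2 at 0.1, TSL1 at 0.53 and NTH1 at −1.06. Their 6 h median of 1.07 became 0.49 with arrays scaled, 0.49 with the length curve removed, 0.32 relative to matched genes and 0.18 with the Cy3 arrays turned. The 2 h median of 0.16 was 0.01 to 0.33 with a replicate left out. The 4 h median of 0.03 became 0.08 with the length curve removed and 0.08 relative to matched genes, and 0.09 to 0.14 with a replicate left out. Enzymes of 1 sign on all arrays numbered 2, and 1 relative to matched genes, 0 with Cy3 arrays turned and 2 to 4 with a replicate left out. Matched on length alone, 0 enzymes were past 2-fold at 6 h. Relative to matched genes the 6 h median was −0.02 without replicate 2 and 0.62 without replicate 1. Turning the Cy3 arrays sets the 2 arrays of 6 h (r = 0.87 as deposited) against each other. Low 6 h values in that alternative followed from the turning. Scaling divides each centred array by its own spread, and the 6 h arrays were the widest. Their SD over all genes was 0.78 and 0.81, against 0.22 to 0.32 on the other arrays. Lower 6 h values with arrays scaled followed from that step. The cause of the remaining changes was not tested.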
